A study of Mus musculus with 27 samples.

Results

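The retinas of mice that lack a copy of Gne were set directly against the retinas of mice that lack C3. The libraries were chosen by their labels: 7 are labelled Gne+/- and C3+/+ (hereafter Gne+/-), and 7 are labelled Gne+/+ and C3-/- (hereafter C3-/-). These 14 libraries are part of a set of 27, which also holds 7 wildtype libraries (Gne+/+, C3+/+) and 6 double mutant libraries (Gne+/-, C3-/-). All mice were 9 months old, each library came from a separate mouse, and RNA was taken from whole retina, so all retinal cell types contribute to each value. Sequencing run 1 held 5 Gne+/- and 4 C3-/- libraries, and run 2 held 2 and 3. The Gne+/- mice carry a heterozygous knockout of Gne, and the C3-/- mice came from a complement knockout line that was crossed with the Gne mice. The strain background of either line is not given in the sources used here. The groups differ at both loci, so a difference between them can belong to either mutation or to other variants carried with it. These cannot be told apart here. The wildtype and double mutant libraries are set beside both groups only to show on which side a difference lies.

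Gne encodes the enzyme that starts the synthesis of sialic acid, the sugar that caps many glycans on the cell surface. Sialic acid is read by Siglec receptors on microglia and helps to restrain complement on host cells. C3 is the protein on which the complement pathways converge: its cleavage products tag surfaces and are read by receptors on microglia. The series was made to ask whether retinal effects of lower sialylation depend on complement. The direct comparison asks in which transcripts the retina with less Gne and the retina without C3 differ from each other.

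The 14 libraries held 13.5 to 34.2 M counts and 16771 to 22938 detected genes. Levels are given in CPM, counts scaled to a common library total, and differences as log2 fold changes from edgeR's quasi-likelihood test with the run as a covariate, Gne+/- minus C3-/-, so that a positive value is a higher level in Gne+/- mice. A gene is said to be called where its Benjamini-Hochberg adjusted p is under 0.05 over all 17409 genes tested. Markers of the main retinal cells were present in each of the 14 libraries: Gnat1, the rod transducin subunit, lay at 4192 to 9318 CPM, Arr3, the cone arrestin, at 219.7 to 884 CPM, and Prkca, a rod bipolar cell marker, at 731 to 1648 CPM. The microglial marker Cx3cr1 lay at 5.16 to 12.5 CPM, and the liver gene Alb at 0 to 0.413 CPM. Slc6a9 and Nefl were at or near 0, but their spans are overlapped by other annotated genes over 98.1% and 100% of their length, and reads there were not counted.

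Of the 17409 genes, 44 were called (0.253%), 24 of them higher in Gne+/- mice (0.138%) and 20 lower (0.115%). Among the 44 were both targeted genes, 30 protein-coding genes in all, 4 pseudogenes and 10 other non-coding genes. The targeted genes apart, the called genes with the smallest p were copies of the ribosomal protein gene Rps13, the interferon-induced Trim12a and Heatr5a, a HEAT repeat gene. Without regard to the adjustment, 1030 genes had a p under 0.05. Within each sequencing run, the Gne+/- and C3-/- libraries did not overlap in 33 of the 44 genes, against 100 of all 17409 genes (0.574%). Pooled over runs, they did not overlap in 18 of the 44, and the share over all genes was not counted. The 44 were called from these same libraries, so these counts describe them and add no support. Run 1 alone gave 19 higher and 23 lower genes, 27 of them among the 44, and run 2 alone gave 17 and 9, with 14 of the 44. Run 2 alone held 2 Gne+/- and 3 C3-/- libraries and did not call C3 itself (edgeR adjusted p = 0.506). A missing call in run 2 alone, as given below for single genes, therefore does not show that a difference is absent there.

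Gne itself was lower in Gne+/- mice. In the 7 Gne+/- libraries it lay at 13.05 CPM at the lowest, 48.2 at the median and 56.7 at the highest, and in the 7 C3-/- libraries at 43.0, 109.6 and 135.6 CPM. The ranges overlapped only because the level of Gne in run 2 was lower in every genotype: within each run, every Gne+/- library was below every C3-/- library. The log2 fold change was -1.39 (SE 0.13, edgeR adjusted p = 1.92e-08), with -1.54 for Gne+/- against wildtype (SE 0.13) and -0.15 for C3-/- against wildtype (SE 0.13). C3 went the other way: 75.9, 118.5 and 285.1 CPM in Gne+/- libraries (lowest, median, highest) against 0, 0.662 and 3.60 CPM in C3-/- libraries, with no overlap. Its log2 fold change was 6.71 (SE 0.62, edgeR adjusted p = 4.84e-07), and Gne+/- mice differed from wildtype by -0.01 (SE 0.45). These values follow the genotype labels. The highest C3 level among the Gne+/- libraries was that of mouse 5, at 285.1 CPM, and the next was 128.5 CPM.

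**Figure D1:**
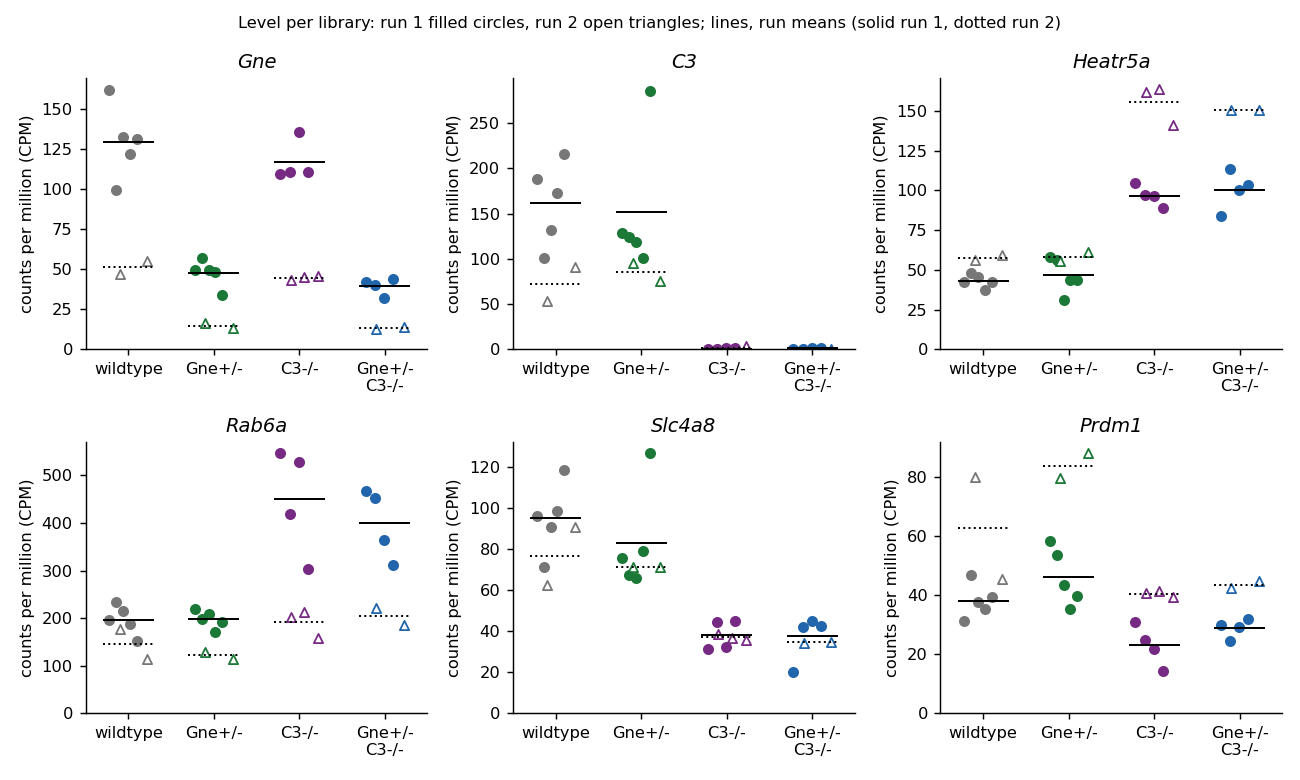
Level of Gne, C3, Heatr5a, Rab6a, Slc4a8 and Prdm1 in CPM (linear axes from 0) in each of the 27 libraries, by genotype; filled circles are run 1, open triangles run 2, and lines the run means. Gne is low in both Gne+/- groups and C3 near 0 in both C3-/- groups, while for Heatr5a, Rab6a, Slc4a8 and Prdm1 the Gne+/- libraries lie nearer to the wildtype ones than the C3-/- libraries do.

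Some of the largest differences were between copies of Rps13, which encodes a protein of the small ribosomal subunit. Rps13-ps1, a processed pseudogene on chromosome 8 (87047689 to 87048226, GRCm38), lay at 94.0, 262.0 and 345.6 CPM in Gne+/- libraries (lowest, median, highest) and at 0.354, 1.54 and 11.5 CPM in C3-/- libraries. Its log2 fold change was 6.01 (SE 0.40, edgeR adjusted p = 1.03e-09). Rps13-ps2, on chromosome 7 (88530446 to 88530898), had 1 count over all Gne+/- libraries, in mouse 3, and 801 counts over the C3-/- libraries, where it lay at 0.413, 10.6 and 15.5 CPM. The gene Rps13 itself, on chromosome 7 (116331505 to 116334195), measured 21.7 ± 29.0 CPM in Gne+/- mice and 253.7 ± 65.3 in C3-/- mice (SD, n = 7 each) and missed the threshold (log2 fold change -4.54, SE 1.01, edgeR adjusted p = 0.0636). The sum of the 3 copies had overlapping ranges, 144.6 to 362.7 CPM in Gne+/- libraries and 185.2 to 393.2 CPM in C3-/- libraries. Its mean was 254.4 ± 85.2 CPM in Gne+/- mice, 265.0 ± 75.0 in C3-/- mice, 273.2 ± 66.0 in wildtype mice (SD, n = 7 each) and 304.1 ± 95.2 in double mutants (SD, n = 6).

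The copies are shown because reads from their coding regions can hardly be told apart. Bases past the stop codon, where reads of a 3′ kit can also fall, were not compared. These are the last 150 coding bases of Rps13 and the matching bases of the pseudogenes, 5′ to 3′ on the strand of each gene, from the GRCm38 reference, with differences from Rps13 in capitals. Over the whole coding region of 456 bases, Rps13-ps1 differed at 2 bases (99.6% identity), both of them in this window, and Rps13-ps2 had no mismatch over the 453 bases it covers; its annotated transcript lacks the last 3 bases, the stop codon.
Rps13: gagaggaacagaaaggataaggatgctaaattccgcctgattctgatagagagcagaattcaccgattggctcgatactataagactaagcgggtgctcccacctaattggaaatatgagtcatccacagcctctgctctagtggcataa
Rps13-ps1: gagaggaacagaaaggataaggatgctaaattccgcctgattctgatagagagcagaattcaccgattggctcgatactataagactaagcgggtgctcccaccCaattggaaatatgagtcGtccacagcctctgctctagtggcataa
Rps13-ps2: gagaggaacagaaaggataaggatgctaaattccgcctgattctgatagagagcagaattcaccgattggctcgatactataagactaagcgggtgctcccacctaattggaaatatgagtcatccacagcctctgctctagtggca
How reads were split between such copies depends on the alignment, so the level of each single copy is uncertain.

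Rps15a, another protein of the small ribosomal subunit, was also lower in Gne+/- mice. It lay at 1.94, 11.3 and 49.8 CPM in Gne+/- libraries and at 159.0, 262.7 and 328.2 CPM in C3-/- libraries, with no overlap (log2 fold change -3.71, SE 0.65, edgeR adjusted p = 0.00588). The value was -4.61 in run 1 alone and -1.70 in run 2 alone, and Rps15a was called in each. Wildtype libraries were at 4.87 to 64.9 CPM, overlapping the range of the Gne+/- libraries, and double mutant libraries at 146.8 to 449.3 CPM. Arl6ip1, an endoplasmic reticulum shaping protein whose gene lies 2.703 kb from Rps15a on chromosome 7, differed in the same direction by a smaller amount: 142.7, 234.6 and 403.4 CPM against 236.4, 375.6 and 465.8 CPM (log2 fold change -0.76, SE 0.14, edgeR adjusted p = 0.00352). The Gne+/- and C3-/- ranges of Arl6ip1 overlapped, and it was not called in run 1 alone (edgeR adjusted p = 0.297).

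Heatr5a, Rab6a and Arhgap31 were lower in Gne+/- mice and Mylk was higher. Heatr5a lay at 31.2, 55.7 and 61.0 CPM in Gne+/- libraries and at 88.7, 104.6 and 163.7 CPM in C3-/- libraries, so that every Gne+/- library was below every C3-/- library (log2 fold change -1.18, SE 0.12, edgeR adjusted p = 2.04e-07). Rab6a, a small GTPase of Golgi transport, lay at 114.3, 191.9 and 218.9 CPM against 158.7, 304.3 and 547.6 CPM (log2 fold change -0.99, SE 0.15, edgeR adjusted p = 0.000206). The ranges of Rab6a overlapped over all libraries but not within either run; its log2 fold change was -1.15 in run 1 alone and -0.65 in run 2 alone, where it was not called (edgeR adjusted p = 0.326). Arhgap31, a GTPase-activating protein for Rac1 and Cdc42, was lower in Gne+/- mice by -1.06 on the log2 scale (SE 0.19), with 22.04, 30.9 and 58.7 CPM against 60.4, 66.7 and 84.3 CPM. Mylk, myosin light chain kinase, was higher, with 45.7, 49.7 and 88.5 CPM in Gne+/- libraries against 25.0, 35.0 and 55.6 CPM in C3-/- libraries (log2 fold change 0.83, SE 0.13). Arhgap31 was not called in run 1 alone (edgeR adjusted p = 0.253), nor was Mylk in run 2 alone (edgeR adjusted p = 0.45).

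Slc4a8 and Xxylt1 were higher in Gne+/- mice and Aldh7a1 was lower. Slc4a8, a sodium-driven chloride bicarbonate exchanger of neurons, lay at 65.9, 71.3 and 126.4 CPM in Gne+/- libraries and at 31.3, 36.8 and 44.8 CPM in C3-/- libraries, with no overlap (log2 fold change 1.05, SE 0.17, edgeR adjusted p = 0.000633). Xxylt1, a xylosyltransferase that extends sugars on Notch, differed by a log2 fold change of 1.45 (SE 0.27), with 1.86 in run 1 alone and 0.67 in run 2 alone, where it was not called (edgeR adjusted p = 1). Aldh7a1, an aldehyde dehydrogenase of lysine breakdown, differed by -0.77 (SE 0.13), with -0.58 in run 2 alone, where it was not called.

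Among regulators, Prdm1, the transcription factor that steers photoreceptor precursors away from the bipolar fate, lay at 35.5, 53.6 and 88.0 CPM in Gne+/- libraries and at 14.3, 31.1 and 41.5 CPM in C3-/- libraries (log2 fold change 1.01, SE 0.16, edgeR adjusted p = 0.000546). Its ranges overlapped over all libraries but not within runs, and it was not called in run 1 alone (edgeR adjusted p = 0.0553). Against wildtype, Prdm1 measured 0.32 in Gne+/- mice (SE 0.16) and -0.69 in C3-/- mice (SE 0.16). Akap6, an anchoring protein for protein kinase A, differed by 0.64 (SE 0.13), Stk3, a kinase of the Hippo pathway, by 0.79 (SE 0.16), and Kat2b, a histone acetyltransferase, by 0.77 (SE 0.16), all higher in Gne+/- mice. In the runs apart, Akap6 measured 0.43 in run 1, where it was not called (edgeR adjusted p = 0.581), and 1.09 in run 2. Stk3 measured 0.81 and 0.79, called in neither (edgeR adjusted p = 0.342 and 0.0558). Kat2b measured 1.00 and 0.41, also called in neither (edgeR adjusted p = 0.0641 and 0.91). Pot1b, a telomere-binding protein, was lower, at 0.0508, 0.945 and 16.2 CPM against 10.1, 16.996 and 22.4 CPM (log2 fold change -2.73, SE 0.49). In Pot1b the 2 run 2 libraries of Gne+/- mice were the highest of their group, at 6.90 and 16.2 CPM, and its log2 fold change was -4.01 in run 1 alone and -0.89 in run 2 alone, where it was not called (edgeR adjusted p = 1). Vwc2l, a secreted protein of the nervous system, was lower by -1.30 (SE 0.27), with -1.81 in run 1 alone and -0.36 in run 2 alone, where it was not called (edgeR adjusted p = 1). The calls of Kat2b and Vwc2l were each lost in 4 of the 14 fits that left out a library, and those of the other 31 named genes in none.

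Some of the called genes were close to undetected in one of the genotypes. Trim12a, a member of an interferon-induced family of restriction factors, had 0 counts over the 7 Gne+/- libraries and 589 over the 7 C3-/- libraries, at least 221-fold lower in Gne+/- mice against a floor of 3 counts over the group. Olfr607, an olfactory receptor gene on the same chromosome, had 313 counts against 0, at least 92.5-fold higher in Gne+/- mice. The gap between these genes is 0.836 Mb. Mrpl48-ps, a pseudogene of a mitochondrial ribosomal protein, had 780 counts against 2. Tmem181b-ps lay at 23.3, 52.6 and 80.7 CPM in Gne+/- libraries and at 0, 0.0552 and 0.307 CPM in C3-/- libraries. Trim12a, Olfr607, Mrpl48-ps and Tmem181b-ps were not called in run 2 alone, and neither were Rps13-ps2 and C3 itself. In the libraries that carry neither mutation, Olfr607 (0.224 to 7.53 CPM) and Tmem181b-ps (25.4 to 68.4 CPM) were detected and Trim12a was at 0 to 0.0512 CPM, as in Gne+/- mice. The floor covers counting error only, since reads were not marked by molecular identifiers.

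Named non-coding genes and genes with provisional symbols were found on both sides. A930014E10Rik (log2 fold change 1.87, SE 0.27), Gm2115 (1.63, SE 0.29), Gm10857 (3.10, SE 0.57) and Gm14216 (0.88, SE 0.17) were higher in Gne+/- mice. Gm14216 measured 0.63 in run 1 alone, where it was not called (edgeR adjusted p = 0.512), and 1.41 in run 2 alone. E230029C05Rik (-3.63, SE 0.45), Gm9918 (-0.88, SE 0.16), Dubr (-1.49, SE 0.29) and Gm16201 (-1.73, SE 0.34) were lower. In the runs apart, Gm10857, Gm9918, Dubr and Gm16201 were called in neither, and Gm2115 was not called in run 2. In Gm10857 and A930014E10Rik the log2 fold changes against wildtype were 1.99 and 1.24 in Gne+/- mice and -1.11 and -0.63 in C3-/- mice. The naming rule left out 11 of the 44 genes, given here to complete the set and so chosen after their values were seen. Of these, Iqgap1 (0.94), Sp1 (0.97), Gm15506 (1.06), Gm40847 (3.84), Knstrn (0.77) and Tcerg1l (2.78) were higher in Gne+/- mice, by the log2 fold changes in parentheses. Kif13a (-0.48), Cers5 (-0.70), Gm30725 (-1.25), Rock2 (-1.12) and Trappc12 (-0.71) were lower. Past the threshold by the least was Trappc12 (edgeR adjusted p = 0.0407), and short of it by the least was Slc35a5 (edgeR adjusted p = 0.0504).

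The side on which each difference lay was read from the single mutants against wildtype. These comparisons share the wildtype libraries with each other and a mutant group with the direct comparison, so their values are set side by side only. Within each run, C3-/- and wildtype libraries also differed in the level of Y-linked genes, given below. Over the 40 called genes with more than 3 counts in both groups, the median absolute log2 fold change was 0.21 for Gne+/- against wildtype and 0.94 for C3-/- against wildtype, beside 1.15 for the direct difference. Over all genes tested, 1 gene, Gne itself, was called in Gne+/- against wildtype (0.00574%), and 29 were called in C3-/- against wildtype (0.167%). Heatr5a shows the pattern: 0.09 in Gne+/- mice (SE 0.12) and 1.27 in C3-/- mice (SE 0.12). Rab6a was at -0.08 (SE 0.15) and 0.91 (SE 0.15), and Slc4a8 at -0.17 (SE 0.16) and -1.22 (SE 0.17). Stk3 was split between the sides, at 0.41 (SE 0.15) and -0.38 (SE 0.15), and so was Trappc12, at -0.45 (SE 0.16) and 0.26 (SE 0.16).

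**Figure D2:**
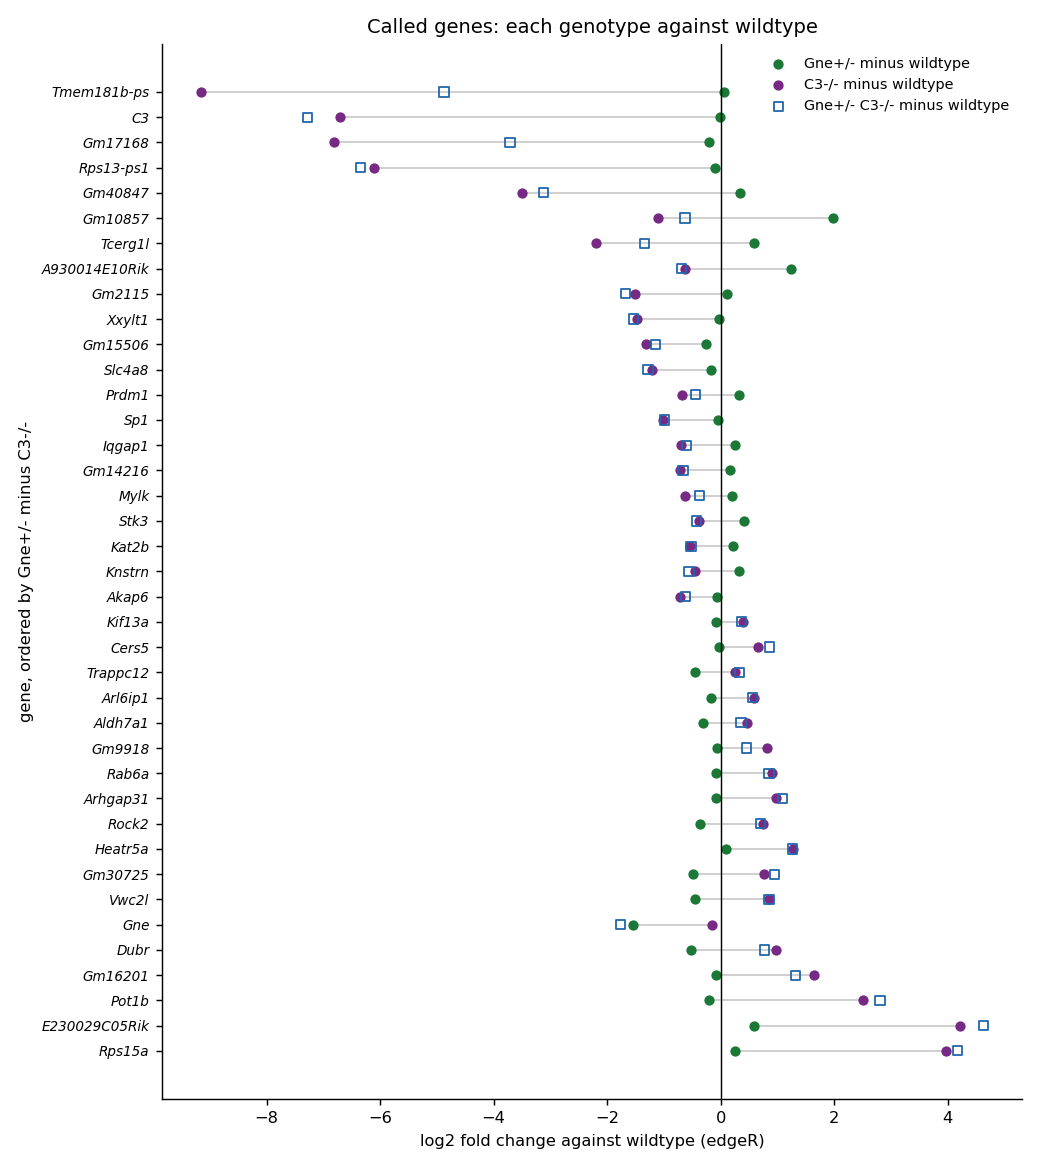
Log2 fold change against wildtype (x axis, edgeR) of 39 called genes with more than 3 counts in both groups, in Gne+/- mice (green circles), C3-/- mice (purple circles) and double mutants (open squares), ordered by the direct difference; grey lines join the single mutants. Most green circles lie near 0 and most purple circles away from it, with Gne as the clearest exception; the wildtype libraries are shared by all 3 comparisons.

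The double mutant against wildtype is a comparison with no library of the direct comparison, although the run term and the spread were estimated in the same fit. Of the 44 genes, 43 had in the double mutant the sign of the C3-/- side (97.7%), against 9655 of all 17409 genes (55.5%). The exception was Gne, which was lower in the double mutant (-1.77, SE 0.14). C3, counted in the 43, was also lower (-7.28, SE 0.67). The double mutant genotype fixes the direction of both targeted genes in advance. In that comparison 27 genes were called over the whole table (0.155%), and 21 of them were among the 44, which is 47.7% of the 44 and 77.8% of the 27. Gne and C3 are among the 21. Heatr5a measured 1.27 in the double mutant (SE 0.13, edgeR adjusted p = 7.11e-08), Rab6a 0.85 (SE 0.15), Slc4a8 -1.28 (SE 0.18) and Rps15a 4.18 (SE 0.69), and these 4 were called. Prdm1 (-0.44, SE 0.16), Mylk (-0.37, SE 0.14) and Aldh7a1 (0.36, SE 0.13) had the C3-/- sign and did not pass. The median absolute log2 fold change of the 40 genes was 0.90 in the double mutant.

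**Figure D3:**
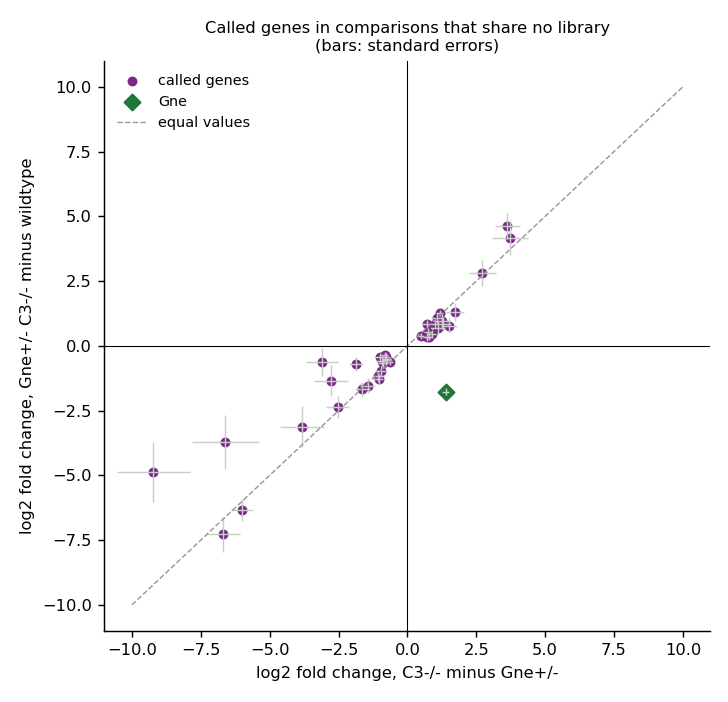
Log2 fold change of the double mutant against wildtype (y axis) and of C3-/- minus Gne+/- (x axis; the sign is turned so that both axes point to the C3-/- side) for the 40 called genes with more than 3 counts in both groups; bars are standard errors and the dashed line marks equal values. All points but Gne lie in the quadrants where both values have the same sign.

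The called genes were unevenly placed in the genome. Chromosome 7 held 12 of the 44, from Iqgap1 (80711583 to 80825974, GRCm38) to Gm16201 (139950396 to 139978977), and chromosomes 12, 15, 16 and 17 held 5 each. These 5 chromosomes carried 32 of the 44 called genes (72.7%) and 23.2% of the genes tested. They were picked because they held the most called genes, and that choice widens the contrast. Chromosomes X and Y, with 567 and 8 tested genes, held 0. Of the 44, 27 had another called gene within 5 Mb, but no such count was made for genes drawn from all those tested. Neighbours differed in either direction: Heatr5a was lower and Akap6 higher in Gne+/- mice at a gap of 0.728 Mb on chromosome 12, and Gm9918 was lower and Sp1 higher at a gap of 0.132 Mb on chromosome 15.

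Called genes were also counted around the targeted genes. Of 73 tested genes within 5 Mb of C3 on chromosome 17, 3 were called besides C3, where 0.253% of all tested genes were called: Gm17168 and Kat2b higher and Pot1b lower in Gne+/- mice. Of the 73, 8 had an unadjusted p under 0.05, where 1030 of all 17409 genes did, and the median log2 fold change was -0.09. Gm17168, the called gene nearest to C3 (gap 0.157 Mb), lay at 0.370, 1.78 and 6.06 CPM in Gne+/- libraries and at 0, 0 and 0.295 CPM in C3-/- libraries (log2 fold change 6.62, SE 1.21). It is annotated antisense and overlapped by other genes over 63.9% of its span, where reads were not counted, and counting used no strand. Slc25a41, a mitochondrial carrier also near C3, measured 7.97 ± 5.603 CPM in Gne+/- mice and 1.86 ± 1.85 in C3-/- mice (SD, n = 7 each) and was not called (log2 fold change 1.94, SE 0.49, edgeR adjusted p = 0.114), but was in DESeq2 (adjusted p = 0.00551) and limma-voom (adjusted p = 0.0258). Of 114 tested genes within 5 Mb of Gne on chromosome 4, 0 were called by edgeR, DESeq2 or limma-voom, 9 had an unadjusted p under 0.05, and the median log2 fold change was 0.00. With 0.253% of all tested genes called by edgeR, 0 among 114 does not set this locus apart from other genes.

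In lists of genes for the pathways that the mutations touch, the targeted genes were the called members. In these and the later lists, medians are read beside the median of all tested genes, 0.00, with 50.2% of values positive. Of all 17409 genes, edgeR called 44 (0.253%), DESeq2 84 and limma-voom 76, and 1030 had an unadjusted p under 0.05 in edgeR. At these shares a short list would mostly hold 0 called genes, so a 0 does not mark a list out. Of 7 tested genes of sialic acid synthesis and activation, 1 was called, Gne, and 6 had a negative value (median -0.16; 0.02 in run 1 and -0.29 in run 2). Renbp, an N-acetylglucosamine epimerase, measured 2.83 ± 2.94 against 3.94 ± 2.62 CPM (SD, n = 7 each), and Slc17a5, the lysosomal sialic acid exporter, 11.03 ± 10.1 against 12.9 ± 10.5 CPM. Run mixes differ between the groups, so plain means and run-adjusted fold changes can point different ways, as in Slc17a5 (log2 fold change 0.18, SE 0.28). Of 8 galactoside sialyltransferases, 0 were called by edgeR, DESeq2 or limma-voom and 2 had an unadjusted p under 0.05; St6gal1, which adds alpha-2,6 sialic acid to N-glycans, was at 10.6 ± 4.22 against 5.75 ± 3.495 CPM (log2 fold change 1.19, SE 0.35, edgeR adjusted p = 0.298). In the St8sia (6 tested), St6galnac (5), sialidase (3) and sialic acid receptor (7) lists, 0 members were called by any of these tools and 0 had an unadjusted p under 0.05. The microglial receptors Siglech (2.22 ± 1.31 against 1.36 ± 1.02 CPM) and Cd33 (0.479 ± 0.586 against 0.789 ± 0.700 CPM) were counted at low levels.

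Of 12 tested complement components, 1 was called, C3 itself. The list had 7 positive and 5 negative values, with a median of 0.29 over both runs, 0.51 in run 1 and -0.27 in run 2. The initiators C1qa (8.76 ± 5.90 against 5.61 ± 2.73 CPM; log2 fold change 0.59, SE 0.35), C1qb (3.39 ± 3.20 against 4.07 ± 1.52 CPM; -0.34, SE 0.76) and C1qc (4.66 ± 2.46 against 4.94 ± 1.62 CPM; -0.21, SE 0.41) were not called, with the values of C1qb and C1qc within 1 standard error of 0 and that of C1qa within 2. C4b, which acts just before C3, was at 2.37 ± 1.09 against 3.802 ± 3.53 CPM, and C2, its partner in the C3 convertase, at 6.51 ± 4.36 against 3.82 ± 2.63 CPM (log2 fold change 1.16, SE 0.57, edgeR adjusted p = 0.838). Of 14 receptors and regulators, 0 were called by edgeR, DESeq2 or limma-voom and 1 had an unadjusted p under 0.05, with 8 positive and 6 negative values and a median of 0.06. C3ar1, the receptor of the C3a fragment, was at 2.55 ± 1.94 against 2.89 ± 2.56 CPM (SD, n = 7 each). Clu, a soluble inhibitor of the terminal complex, was at 570.9 ± 231.0 against 485.4 ± 149.0 CPM and Cd59a, its membrane-bound counterpart, at 169.0 ± 90.0 against 128.5 ± 49.5 CPM; both log2 fold changes (0.08, SE 0.17, and 0.23, SE 0.21) lay within 2 standard errors of 0.

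By edgeR, DESeq2 and limma-voom, 0 microglial genes were called, where edgeR called 0.253% of all genes. Lists of 12 and 23 genes would mostly hold 0 at that share, so the 0 is no finding about microglia. Homeostatic microglia genes (12 tested) had 8 positive values and a median of 0.19, with 0.43 in run 1 and -0.02 in run 2. Activated microglia and lysosome genes (23 tested) had 17 positive values and a median of 0.21, with 0.20 and 0.05 in the runs; 0 of either list had an unadjusted p under 0.05. The summed level of the activated list was 939.8, 1002 and 1244 CPM in Gne+/- libraries (lowest, median, highest) and 873.1, 1016 and 1042 CPM in C3-/- libraries. The highest value was again that of Gne+/- mouse 5, and the groups overlapped. Trem2, a lipid receptor of activated microglia, measured 1.70 ± 1.18 against 0.521 ± 0.506 CPM (log2 fold change 1.70, SE 1.05), and Tmem119, a homeostatic marker, 1.37 ± 1.07 against 2.68 ± 1.86 CPM (-1.13, SE 0.67). Cd47, the signal that restrains phagocytes, was at 302.0 ± 89.2 against 193.2 ± 31.2 CPM and missed the threshold (log2 fold change 0.52, SE 0.15, edgeR adjusted p = 0.248), which it passed in limma-voom (adjusted p = 0.0148).

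Among neuronal lists, edgeR called 0 genes, where it called 0.253% of all genes. Each list had 0 to 4 members at an unadjusted p under 0.05, where 1030 of all 17409 genes had one. In bulk tissue, fewer cells of a type and less RNA per cell cannot be told apart. Of 18 rod genes, 14 had negative values (median -0.17; -0.10 in run 1 and -0.24 in run 2), and 2 had an unadjusted p under 0.05. Of 20 genes of OFF and cone bipolar cells, 14 had negative values (median -0.16; -0.13 and -0.16 in the runs). The summed level of that list was 1072, 1324 and 1484 CPM in Gne+/- libraries and 1357, 1423 and 1599 CPM in C3-/- libraries, with overlap. Its member Grik1, a kainate receptor subunit of OFF bipolar cells, measured 432.5 ± 127.2 against 522.3 ± 148.1 CPM (SD, n = 7 each; log2 fold change -0.32, SE 0.13, edgeR adjusted p = 0.748). Genes of ON and rod bipolar cells (18 tested, median -0.08) and cones (13, median -0.01; -0.05 in run 1 and 0.05 in run 2) were nearer to 0. The cone phosphodiesterase Pde6c came closest to the threshold of the neuronal genes named here, at 101.1 ± 41.0 against 150.2 ± 84.3 CPM (log2 fold change -0.60, SE 0.15, edgeR adjusted p = 0.0784); it was called in DESeq2 (adjusted p = 0.0388) and limma-voom (adjusted p = 0.00231), and stood at -0.03 in Gne+/- mice and 0.57 in C3-/- mice against wildtype. Pou4f1, a ganglion cell transcription factor, was at 53.3 ± 25.8 against 72.3 ± 40.7 CPM (-0.57, SE 0.15, edgeR adjusted p = 0.171). Of 24 ribbon synapse genes, 18 had negative values with a median of -0.06, and of 8 mitochondrially encoded genes, 7 had negative values with a median of -0.23.

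**Figure D4:**
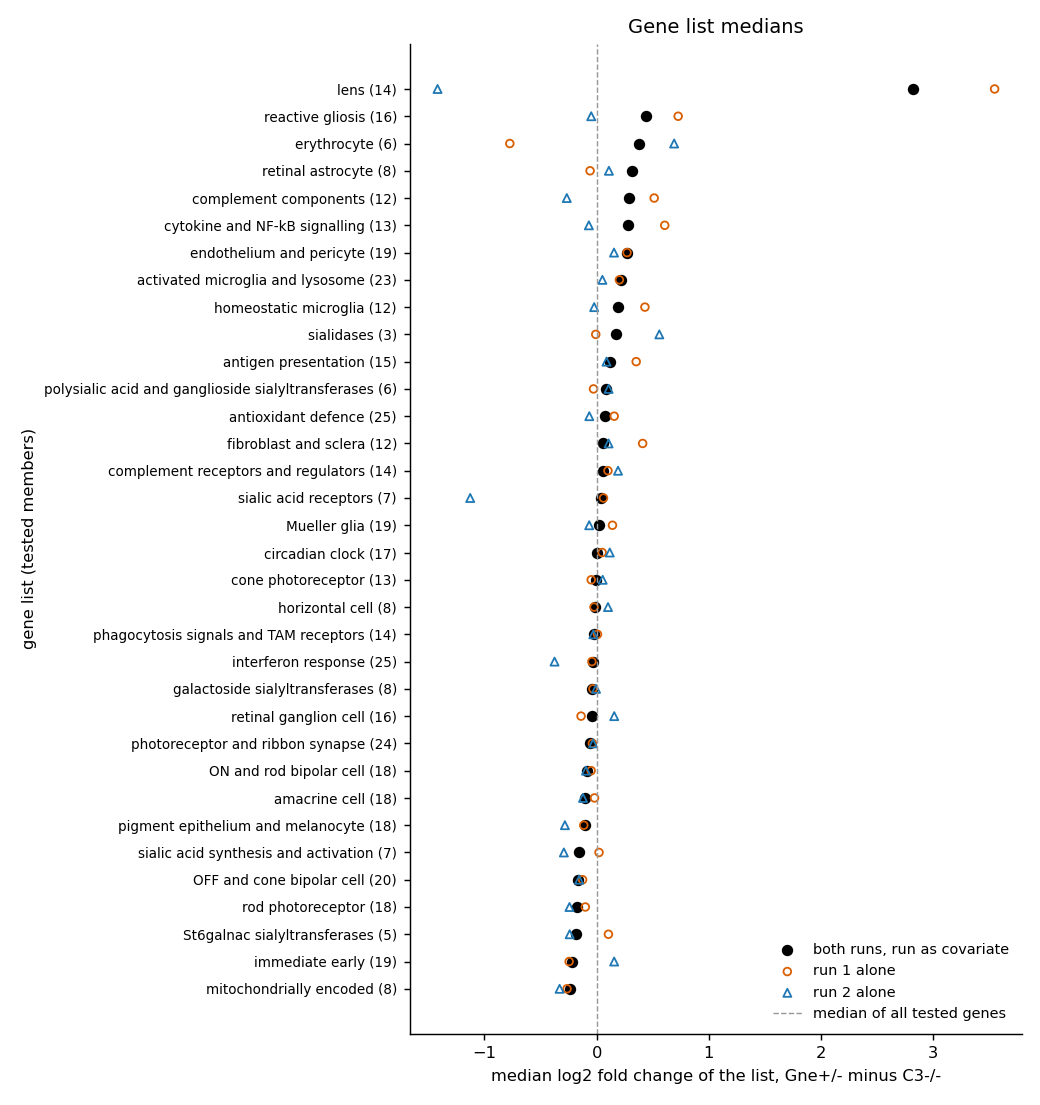
Median log2 fold change (x axis, Gne+/- minus C3-/-) of each gene list with its number of tested members, over both runs (black), in run 1 alone (orange) and in run 2 alone (blue); the dashed line is the median of all tested genes. Lens genes stand at 2.81 with run 1 at 3.55 and run 2 at -1.42, and most other lists lie within 0.5 of 0; the Y-linked list, given in the text, is left out.

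In the glial and vascular lists the medians over both runs were above 0, but those of the glial lists turned negative in one of the runs. In these lists 0 genes were called by edgeR, DESeq2 or limma-voom, where edgeR called 0.253% of all genes. In each of the gliosis, Mueller glia and endothelial lists 2 had an unadjusted p under 0.05, where 1030 of all 17409 genes had one. Of 16 reactive gliosis genes, 11 were positive (median 0.44), with 0.73 in run 1 and -0.05 in run 2. Serpina3n, an inhibitor secreted by reactive glia, measured 25.6 ± 24.7 against 2.92 ± 1.71 CPM (log2 fold change 2.11, SE 0.87, edgeR adjusted p = 0.781), and wildtype mice were at 21.7 CPM. Gfap, the intermediate filament of reactive glia, was at 10.9 ± 8.84 against 5.76 ± 4.01 CPM (0.58, SE 0.40). Mueller glia genes (19 tested) had a median of 0.02, with 0.14 in run 1 and -0.07 in run 2. Retinal astrocyte genes (8 tested) had one of 0.31, with -0.06 and 0.11 in the runs, so that neither run reached the value over both. Endothelial and pericyte genes (19 tested) had one of 0.27, with 0.27 and 0.15. Of 25 interferon response genes, 1 was called, Trim12a, and the median was -0.03, with -0.04 in run 1 and -0.37 in run 2; its chromosome 7 relatives Trim34a, Trim5 and Trim30a (0.0501, 0.214 and 0.720 CPM in Gne+/- mice against 0.809, 1.17 and 2.45 in C3-/- mice, as means) were not called, apart from Trim5 in limma-voom (adjusted p = 0.0468). Immediate early genes (19 tested) had a median of -0.22 with 13 negative values, but -0.24 in run 1 and 0.16 in run 2, and Klf4 was at 1.89 ± 1.099 against 6.02 ± 3.65 CPM (-1.66, SE 0.46, edgeR adjusted p = 0.203; DESeq2 adjusted p = 0.0243).

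Lens genes and Y-linked genes differed between libraries of the same group. All 14 tested lens genes had positive values with a median of 2.81; 8 had an unadjusted p under 0.05, 0 were called by edgeR or limma-voom and 1, Cryab, by DESeq2 (adjusted p = 0.0275). The summed lens level in Gne+/- mice 1 to 5 was 1856, 253.0, 303.4, 3245 and 378.2 CPM, and in mice 7 and 8, the run 2 libraries, 48.4 and 67.9 CPM. In C3-/- libraries it was 51.3 to 270.5 CPM. Cryab, a crystallin that glia also express, measured 419.9 ± 564.1 against 79.4 ± 32.9 CPM (log2 fold change 1.90, SE 0.55, edgeR adjusted p = 0.347). Without Gne+/- mice 1 and 4, a setting chosen after seeing the data, the lens median was 1.22. In that setting 31 genes were called, 30 of them among the 44. Mice 1 and 4 were also the only Gne+/- libraries of run 1 with a high summed Y-linked level, 357.9 and 626.8 CPM. Leaving them out changes the Y-linked level too, so the setting is not a test of the lens level alone. With the lens level as a covariate, also chosen after seeing the data, 33 genes were called, 32 of them among the 44. Lens tissue beside the retina and the retina's own crystallins cannot be told apart here.

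The summed level of 4 Y-linked genes was above 100 CPM in 2 of 5 Gne+/- libraries of run 1 and 2 of 2 of run 2, and in 4 of 4 and 0 of 3 C3-/- libraries. The libraries above this value were at 245.6 CPM or more and the others at 2.71 CPM or less, over all 27. Wildtype libraries were at 0.396 to 1.62 CPM in run 1 and at 327.4 and 288.6 CPM in run 2, the reverse of the C3-/- libraries. Within a run, a difference between C3-/- and wildtype mice thus cannot be told apart from one in the Y-linked level. The same holds for Gne+/- against C3-/- mice in run 2 alone. With Gne+/- mice 1 and 4 left out, it holds for these groups in run 1 as well, with the Y-linked level in the opposite direction. Sex is not among the labels. With the Y-linked level as a covariate, 48 genes were called, 44 of them the original 44.

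**Figure D5:**
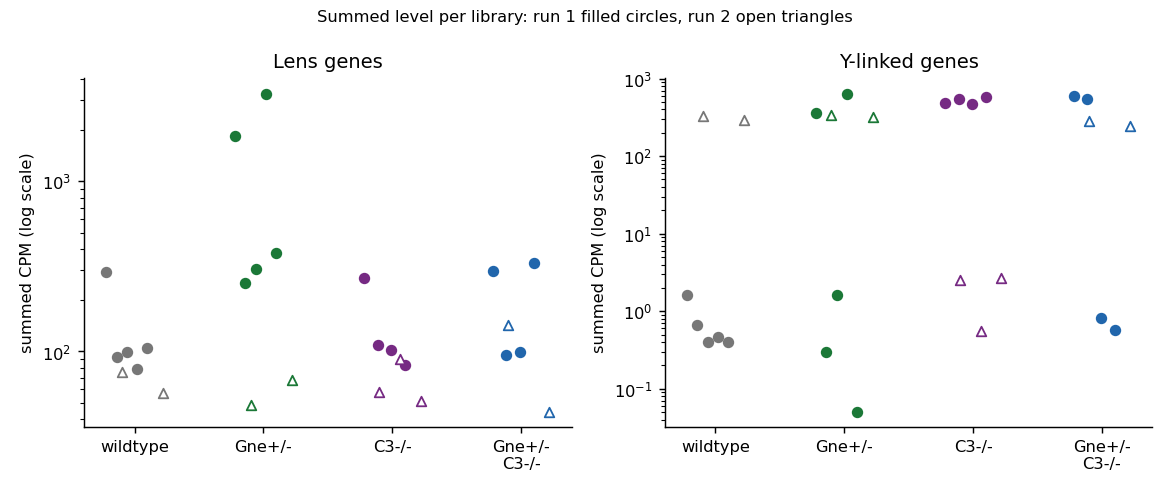
Summed level of the lens genes (left) and of 4 Y-linked genes (right) in CPM on log axes in each of the 27 libraries, by genotype; filled circles are run 1 and open triangles run 2. Gne+/- mice 1 and 4 stand at 1856 and 3245 CPM for lens genes, above every other library, and the Y-linked level falls into a high and a low set in every genotype.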

How the data were processed

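RNA of whole retina from 27 mice, 100 ng a library, was sequenced with a 3′ kit, per the labels' protocols. The authors deposited raw gene counts, which carry no scaling. STAR 2.7.3a did the alignment and Subread 2.0.0 the counting, per the submitters' processing notes; featureCounts 2.0.3 and Ensembl release 101 (GRCm38) stand in the counts, per the file headers. Counting covered exons and introns with no strand setting and left out reads in overlaps of genes, per the file headers. The series table equalled the single files in 27 of 27 libraries, and symbols matched 55141 of 55487 genes.

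Counts were analysed with edgeR 4.0.16 in R 4.3.3: filterByExpr (minimum count 10), TMM factors, and a quasi-likelihood test with the 4 genotype groups and the run as terms over all 27 libraries (22 residual degrees of freedom, common biological coefficient of variation 55.1%), which share 1 estimate of the spread. CPM use TMM-scaled library sizes. Standard errors come from the F statistic, and adjustment followed Benjamini and Hochberg (0.05). No library repeated another: chi-square per degree of freedom was 10.2 or more over 78 pairs of the same group. The procedure was tested on simulated data. Alternatives were DESeq2 1.42.0, limma-voom (limma 3.58.1), RLE factors, other filters, a fit that was not robust, a fit that ignored the run, the runs apart, the mouse number as a block, Y-linked and lens covariates, the 14 libraries alone, and leaving out each of the 14 in turn.

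The groups, gene lists and the rule for named genes were chosen with earlier results of these data known. The rule took the targeted genes, up to 15 called genes in each direction with the smallest p (provisional symbols and pseudogenes only at 10 CPM or more in a group or as copies of a named gene), tested members of the sialic acid synthesis, complement and Y-linked lists, up to 4 of each other list, and the called genes nearest to C3 and Gne. Lists were described by counts and medians, with no set test. Some genes that the rule takes are not reported here.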

Additional observations from a re-analysis of the deposited data

Results flagged for a closer look

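Levels of named called genes and of summed lists, each within Gne+/- or within C3-/- libraries, were checked for a single value far from the rest. Of 134 such sets of values, 14 held one. The cut-off flags about 1 in 20 sets of independent, normally spread values. These sets pool both runs, some share genes and some are mostly 0, so the count cannot be set against that rate. In Gne+/- mouse 5, C3 was at 285.1 CPM (next 128.5), Slc4a8 at 126.4 CPM (next 78.96) and Arl6ip1 at 403.4 CPM (next 246.3). The same library had the highest summed levels of complement components, of activated microglia and lysosome genes (1244 CPM) and of pigment epithelium and melanocyte genes (2496 CPM, next 1512). Its complement sum, 357.6 CPM, includes the 285.1 CPM of C3, so it largely repeats the C3 value. In Gne+/- mouse 4, Arhgap31 was at 58.74 CPM and the summed reactive gliosis list at 498.8 CPM, in the library that also had the highest lens level. Pot1b was at 16.15 CPM in Gne+/- mouse 8, and Rps13-ps2 at 0.05122 CPM in Gne+/- mouse 3, its only count in that group.

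Among C3-/- libraries, mouse 9 had the highest C3 level, 3.598 CPM (next 1.275), and the highest Gm17168 level, 0.2949 CPM, where the other 6 were at 0. C3-/- mouse 6 had 820.7 CPM of summed erythrocyte genes (next 197.4), and C3-/- mouse 1 had 270.5 CPM of summed lens genes (next 109.6).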

How the results depend on the processing

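Where tested, none of the 33 named called genes changed sign under any of the 14 alternatives or the 14 fits without 1 library. Against 24 higher and 20 lower genes, the counts were 9 and 6 with no run term, 224 and 69 with no filter on low counts, 46 and 38 in DESeq2, and 39 and 37 in limma-voom; the cause was not tested, except that 29460 genes were tested with no filter. Run 2 alone, with fewer libraries, gave 9 lower genes. Of the 44 genes, 21 were called in the double mutant against wildtype, 12 with no run term and 10 in run 2 alone. Leaving out each library gave 18 to 26 higher and 14 to 28 lower genes, with 32 to 43 of the 44 kept and 20 to 21 called in the double mutant. The fit on the 14 libraries alone tested 15265 genes and called 30, 29 of them among the 44. RLE factors and the stricter filter each called 45, with all 44 kept. Of the 33 named called genes, 33 were called in DESeq2 and in limma-voom, 21 in run 1 alone, 13 in run 2 alone, and 5 under all 14 alternatives. Of 35 list medians, 10 kept their sign in all 14 alternatives. With the mouse number as a replicate block, 21 genes were higher and 22 lower, 39 of the 44 were kept, and 19 were called in the double mutant. The labels do not say whether equal numbers pair the libraries, and the correlations do not settle it. Between same-numbered libraries they were 0.171, -0.0107, -0.0442, 0.100 and 0.0655 for mice 1, 2, 5, 7 and 8. Those of mice 1 and 7 were the best match, and the others were not. Genes at a few counts, such as Rps13-ps2, are limited by depth.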
